A study of Mus musculus with 1 sample.

Results

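Alveolar macrophages (AMs) that express major histocompatibility complex (MHC) class II genes were examined in a single-cell library of 2055 sorted cells. A cell was taken as a class II+ AM when at least 2 of the genes H2-Aa, H2-Ab1 and H2-Eb1 had a value above 0, and 246 cells of 2055 met this rule. They were compared with the 1459 cells that had 0 for all 3 genes, called class II-zero AMs here, and the 350 cells with 1 of the 3 genes stood between the groups. The members were therefore selected on the 3 genes themselves, so the levels of these genes in them are a description.

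The library came from the lungs of 1 wild-type mouse of the study, which carried floxed Hdac3 alleles (Hdac3fl/fl) without Cre, on an FVB/NJ background backcrossed to C57BL/6 for 10 generations, at an age given as 8 to 12 weeks. AMs were sorted as CD45+CD11c+SiglecF+ cells, and 5000 cells were loaded on the 10x Genomics 3' assay (v2 chemistry), in which each transcript copy is counted once through its unique molecular identifier (UMI). The library of mice that lack Hdac3 in CD11c+ cells was not analysed here. With 1 library there is no replicate, no test between conditions and no p-value, and all intervals below are exact 95% intervals that cover counting error only.

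MHC class II molecules are pairs of an alpha and a beta chain that carry peptides from ingested proteins to the cell surface, where CD4+ T cells read them. H2-Aa and H2-Ab1 encode the alpha and beta chain of the I-A molecule, and H2-Eb1 encodes the beta chain of I-E. Cd74 encodes the invariant chain, which occupies the groove of new class II molecules and guides them to the endosome. H2-DM, a class II-like pair of H2-DMa and H2-DMb chains, then helps exchange the remnant of the invariant chain for peptide. Dendritic cells and B cells express these genes at a high level, and resident AMs at a low and uneven one.

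The class II+ AMs were 12.0% of the cells (interval 10.6% to 13.5%), of which 142 had 2 of the 3 genes and 104 had all 3. They were deeper than the cells they were compared with, with a median of 3842.5 UMIs per cell against 3103 in class II-zero AMs and 3687 in cells with 1 gene. Their share was higher in deeper cells, from 7.98% and 8.56% in the lower quartiles of UMIs per cell to 13.6% and 17.7% in the upper ones. When every cell was thinned to 1500 UMIs, the rule found 5.91% of 1946 cells. Since deeper cells pass the rule more often, the comparisons were also made within quartiles of depth. At a matched depth of 1500 UMIs the groups had a median of 839.5 and 845 genes per cell, with 8 and 87 cells too shallow to thin. They had a median of 3.31% and 3.19% of UMIs on mitochondrial genes. No cell type in this sort lacks class II genes for certain, so the share of cells given a class II UMI by free RNA could not be measured.

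H2-Aa had 939 UMIs in the class II+ AMs, which is 9.43 per 10000 UMIs (8.84 to 10.1), and was detected in 91.5% of them. H2-Ab1 was at the same level, with 923 UMIs or 9.27 per 10000, in 91.9% of the cells. H2-Eb1 was lower, with 420 UMIs or 4.22 per 10000, in 58.9% of the cells. The pair of I-A chains made up most of the patterns, since 101 cells had H2-Aa and H2-Ab1 without H2-Eb1, 104 had all 3, 20 had H2-Aa with H2-Eb1 and 21 had H2-Ab1 with H2-Eb1. Of the cells with 1 gene, 169 had H2-Ab1, 134 had H2-Aa and 47 had H2-Eb1.

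Across the whole library, each I-A chain was detected more often in cells with the other chain than in cells without it. H2-Ab1 was found in 57.1% of the 359 cells with H2-Aa (51.8% to 62.3%) and in 11.2% of the 1696 cells without it (9.74% to 12.8%). H2-Aa was found in 64.6% of the 192 cells with H2-Eb1 and in 12.6% of the others. Deep cells show more of all genes, and this part of the co-detection was not tested.

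Levels within the group were very uneven. A class II+ AM held between 2 and 331 UMIs of the 3 genes, with a median of 4, and between 2.80 and 496 per 10000 UMIs of the cell, with a median of 11.8. The 2 cells with the most UMIs held 22.1% of all class II UMIs of the group, and 10 cells held 43.4%. At the other end, 50 of the 142 cells with 2 genes passed the rule on exactly 2 UMIs, while 305 of the 350 cells with 1 gene missed it on a single UMI. The cells just inside and just outside the rule therefore differ by 1 UMI.

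**Figure D1:**
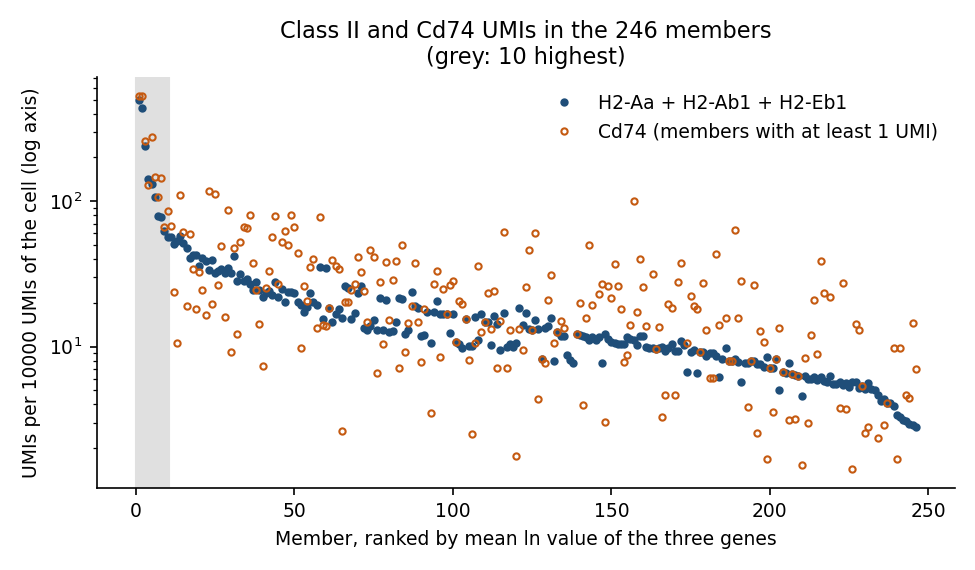
Each class II+ AM is placed by its rank on the x axis, and the y axis (log scale) gives the UMIs per 10000 of the cell for H2-Aa, H2-Ab1 and H2-Eb1 together (filled points) and for Cd74 (open points, cells with at least 1 UMI). The class II sum goes from 496 to 56.7 per 10000 over the 10 highest cells (grey) and ran on without a break through the median of 11.8.

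Cd74, which was not part of the rule, followed the class II genes. It was detected in 91.9% of class II+ AMs, with 31.9 UMIs per 10000 (30.8 to 33.0), and in 21.6% of class II-zero AMs, with 0.932 per 10000 (0.848 to 1.02). Cells with 1 of the 3 genes had Cd74 in 41.1% and 3.49 per 10000, cells with 2 genes in 88.7% and 14.9 per 10000, and cells with all 3 in 96.2% and 50.7 per 10000. The intervals of these 4 levels do not overlap. Of the 469 Cd74 UMIs in cells with 1 gene, 57 were in 1 cell that held 951 UMIs of B and plasma cell markers, and without it the level was 3.08 (2.79 to 3.39). Without the 10 highest cells the class II+ AMs still had 21.6 per 10000. In cells thinned to 1500 UMIs Cd74 was detected in 76.9% of class II+ AMs and 12.1% of class II-zero AMs. The 20 class II+ AMs with no Cd74 UMI had between 2 and 5 class II UMIs, and their median depth of 3813 UMIs was close to that of the other 226 cells.

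The ratio of Cd74 UMIs to class II UMIs was 1.14 in cells with 1 gene, 1.56 in cells with 2, 1.35 in cells with 3 and 1.19 in the 10 highest cells. H2-Eb1 took 18.4% of the class II UMIs of the group (16.8% to 20.1%), 22.7% in the 10 highest cells (20.1% to 25.5%) and 15.3% in the other 236 (13.5% to 17.4%). These shares are a description, since the same 3 genes chose and ranked the cells.

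The classical class II genes H2-Aa, H2-Ab1 and H2-Eb1 and the non-classical H2-DM genes lie together on chromosome 17, and their promoters are known for a shared module with an X box and a Y box, the latter being an inverted CCAAT box. The promoters of H2-Aa, H2-Eb1 and H2-DMb1 are shown because H2-Aa and H2-Eb1 chose the cells and H2-DMb1 was the gene with the highest level ratio among the genes compared below. Each runs from 250 bases before to 50 bases after the RefSeq start (GRCm38.p6), 5′ to 3′ on the strand of the gene, and capitals mark ATTGG or its reverse complement CCAAT.
H2-Aa: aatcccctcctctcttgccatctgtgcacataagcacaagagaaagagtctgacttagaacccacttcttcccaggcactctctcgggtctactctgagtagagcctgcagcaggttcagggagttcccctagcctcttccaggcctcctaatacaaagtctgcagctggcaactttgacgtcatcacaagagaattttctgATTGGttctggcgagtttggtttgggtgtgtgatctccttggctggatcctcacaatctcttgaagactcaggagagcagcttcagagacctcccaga
H2-Eb1: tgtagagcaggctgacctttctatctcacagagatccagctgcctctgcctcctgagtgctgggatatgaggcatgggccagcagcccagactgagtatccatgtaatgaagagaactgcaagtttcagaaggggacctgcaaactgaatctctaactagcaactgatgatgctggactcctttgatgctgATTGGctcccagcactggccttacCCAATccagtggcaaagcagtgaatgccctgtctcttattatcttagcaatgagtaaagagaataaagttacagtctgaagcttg
H2-DMb1: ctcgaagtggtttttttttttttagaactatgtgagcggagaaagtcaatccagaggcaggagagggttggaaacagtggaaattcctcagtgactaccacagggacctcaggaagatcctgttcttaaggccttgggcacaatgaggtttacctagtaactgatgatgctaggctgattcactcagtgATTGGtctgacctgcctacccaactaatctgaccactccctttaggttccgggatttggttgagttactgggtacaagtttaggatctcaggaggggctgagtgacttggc
The H2-Aa promoter is at chr17:34287774-34288073 on the minus strand, that of H2-Eb1 at chr17:34305617-34305916 and that of H2-DMb1 at chr17:34152941-34153240, both on the plus strand. ATTGG starts 48 bases before the start of H2-Aa, 59 before that of H2-Eb1 and 61 before that of H2-DMb1, and H2-Eb1 has a second match, CCAAT, 35 bases before. H2-Eb1 and H2-DMb1 also share the run aactgatgatgct of 13 bases, which begins 89 and 92 bases before their starts, upstream of ATTGG in each. Of the genes not shown, H2-DMa has 0 matches in its promoter at chr17:34122582-34122881. In that at chr17:34125268-34125567 it has 1, which begins 198 bases before the start. H2-DMb2, H2-Oa, H2-Ob, H2-Eb2 and the class I gene B2m have 1 match each, at 90, 43, 57, 100 and 53 bases. A match near the start is therefore not particular to the promoters shown. The letters ATTGG or CCAAT occur in 37.4% of the 32851 mouse promoters of the same length. They occur in 13.6% of them within 100 to 41 bases before the start, so a match is a description and not a binding site.

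For the comparison across genes, UMIs were summed over the cells of each group and given per 10000 UMIs without the 3 class II genes and Cd74, and a gene was counted past a level ratio of 1.5 in either direction. Of 5616 genes with at least 100 UMIs, 66 were higher in class II+ AMs (1.18%) and 159 were lower (2.83%). The lower genes had a median of 17 UMIs in class II+ AMs and the higher genes 35.5, against 48 over all genes compared, so most of the calls were made on few UMIs. The interval of the ratio lay above 1 for 49 of the 66 and below 1 for 80 of the 159. Over all 5616 genes the interval left out 1 for 8.10%, where an exact interval of this level leaves out up to 5% by counting error alone. The median log2 ratio of all genes was -0.03. Log ratios averaged over quartiles of depth, with 0.05 added to each level, gave 36 genes higher and 392 lower. Each quartile weighed the same in this average, and the shallowest held 41 class II+ AMs. Thinning every cell to 1500 UMIs kept both counts within 1.5 times of the main ones. These ways of treating depth therefore gave different splits, and the part of zero counts in the averaged ratios was not tested. Without the 10 highest cells, 51 of 5597 genes were higher (0.911%) and 153 lower (2.73%).

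Among genes with at least 300 UMIs, 10 were higher and 12 lower at a ratio of 1.5. The number of genes at this limit is not given here, so these counts have no share beside them. The 10 higher genes were H2-DMb1, S100a6, AW112010, Wfdc17, Cd52, Cst3, Crip1, Siglece, H2-DMa and Mkln1. The 12 lower genes include Apoe, given below, and the others are not named here. At a ratio of 2, 5 of all 5616 genes compared were higher, namely H2-DMb1, Ccl17, S100a6, Cfb and Ereg, and 12 were lower. Siglece, Mkln1 and Cfb were named after their values were seen.

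**Figure D2:**
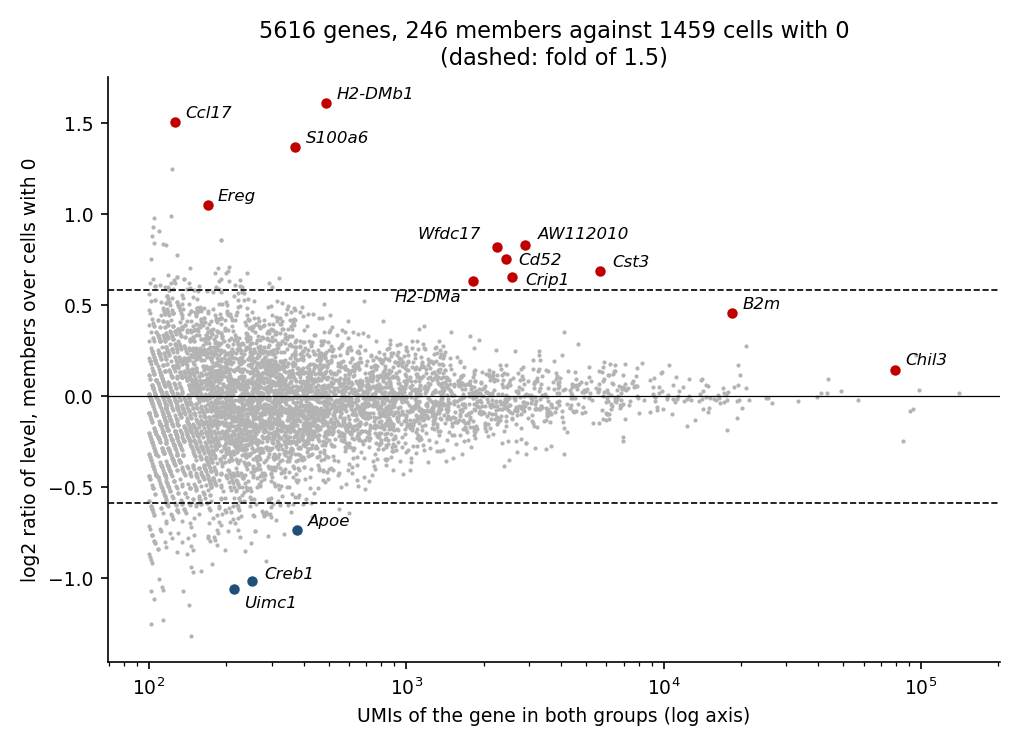
Each of the 5616 genes is a point, with its UMIs in both groups on the x axis (log scale) and the log2 ratio of its level in the 246 class II+ AMs over the 1459 class II-zero AMs on the y axis, and dashed lines mark a fold of 1.5. H2-DMb1, Ccl17 and S100a6 stand highest, while the abundant AM gene Chil3 lies near 0 and the spread widens toward genes with few UMIs.

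The other genes of the class II pathway differed in direction. Of 21 such genes, 19 are listed and 12 had enough UMIs, of which 2 were higher (H2-DMa and H2-DMb1), 1 was lower (Creb1) and 9 were within a ratio of 1.5, with a median log2 ratio of 0.11 against -0.03 over all genes. H2-DMb1 (ENSMUSG00000079547, chr17:34153072-34160230) had 186 UMIs in 117 of the 246 class II+ AMs and 301 UMIs in 260 of the 1459 class II-zero AMs. Its level was 1.88 against 0.616 per 10000, a ratio of 3.05 (2.52 to 3.67), the highest of all genes compared, and 2.63 without the 10 highest cells. The most UMIs in a cell were 4 in the class II-zero group and 4 in class II+ AMs without the 10 highest cells, and the highest of those 10 had 8.

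The level of H2-DMb1 was 0.616 per 10000 (0.549 to 0.690) at 0 class II genes and 0.782 (0.640 to 0.947) at 1. It was 1.63 (1.30 to 2.02) at 2 genes and 2.15 (1.75 to 2.61) at 3. The intervals at 0 and 1 overlap, as do those at 2 and 3, while those at 1 and 2 do not. Without the 2 cells of highest class II level, the level at 3 genes was 1.93 (1.55 to 2.38). It was 7.40 per 10000 in the 10 highest cells, 2.19 in the cells ranked 11 to 50, 1.78 in the next 100 and 1.26 in the last 96. Within quartiles of depth the ratio for H2-DMb1 was 6.03, 2.87, 3.06 and 2.83 from the shallowest to the deepest cells, so it was above 1 in each. After thinning to 1500 UMIs it was detected in 26.1% of class II+ AMs and 8.82% of class II-zero AMs. No 98-base sequence from the last 300 bases of its transcripts was found in a transcript of another gene, H2-DMb2 included.

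H2-DMa, the partner chain, had a ratio of 1.55 (1.39 to 1.73), with 4.40 against 2.84 per 10000, and 1.47 without the 10 highest cells. From the shallowest to the deepest quartile its ratios were 1.49 (0.965 to 2.23), 1.13 (0.795 to 1.58), 1.62 and 1.61. H2-DMa was within a ratio of 1.5 in 6 of 13 alternatives, with 1.33 the lowest, so its place among the higher genes depends on the setting. Its levels were 2.84, 3.30, 4.09 and 4.75 per 10000 at 0, 1, 2 and 3 genes. H2-DMb2 had 21 UMIs against 34 and H2-Oa 7 against 9, with ratios of 3.05 (1.68 to 5.40) and 3.84 (1.21 to 11.6), but without the 10 highest cells these were 1.82 and 1.15, and 8 of the 21 H2-DMb2 UMIs lay in 1 cell. None of the proteases and the reductase of the pathway passed a ratio of 1.5. Ctss, which cuts the invariant chain, had 41.6 against 34.4 per 10000 (ratio 1.21, 1.17 to 1.252), Ifi30, a thiol reductase, had a ratio of 1.20 (1.03 to 1.40), and Lgmn and Ctsl had 1.11 and 0.970.

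Among the regulators, Ciita, the master transactivator of class II genes, had 3 UMIs in the library, 1 in each of 3 class II+ AMs and none in the other cells. A count of 0 in class II-zero AMs allows up to 3 UMIs, so no fold is given. Rfx5 had 5 UMIs in class II+ AMs and Rfxank 5, both at ratios whose intervals include 1. Nfya and Nfyc, subunits of the factor that binds CCAAT boxes, had ratios of 1.16 (0.764 to 1.72) and 1.06 (0.670 to 1.61). Creb1, which binds the X box region, was lower, with 23 UMIs in class II+ AMs against 229 (0.232 against 0.469 per 10000, ratio 0.495, 0.308 to 0.762).

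**Figure D3:**
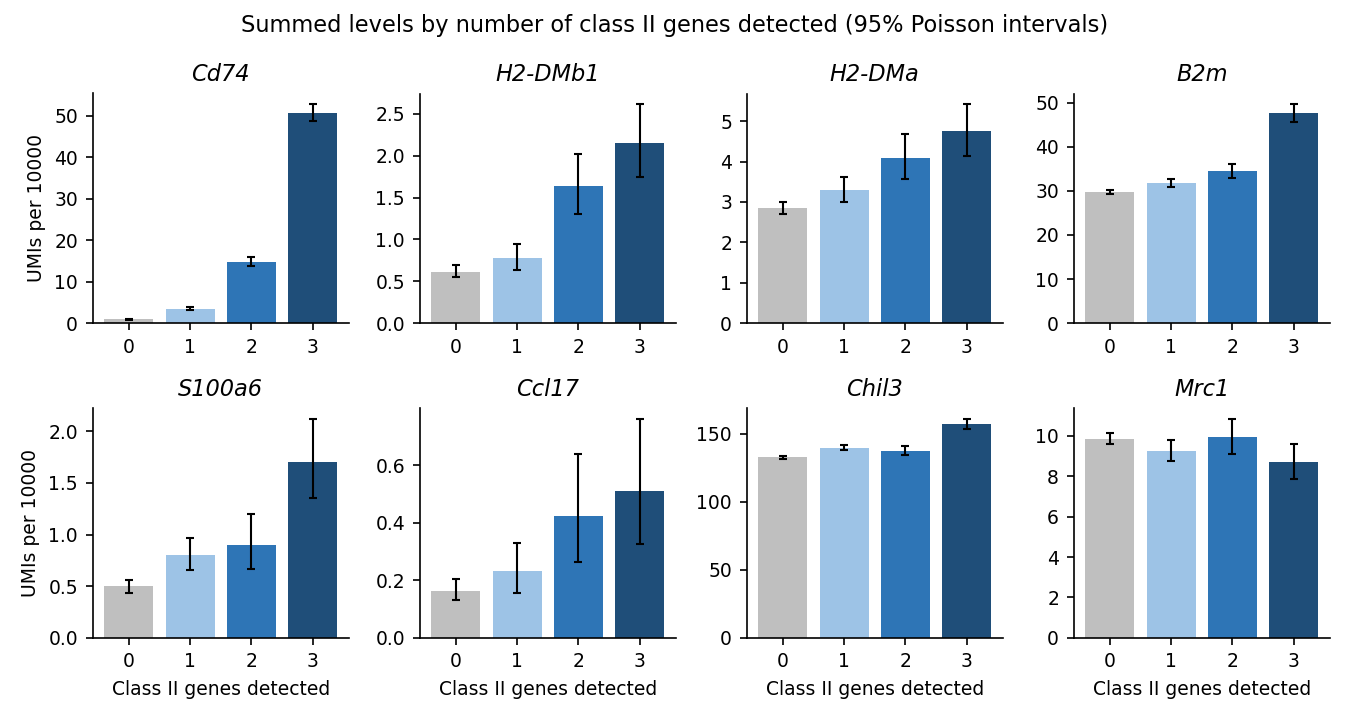
Bars give the summed level of 8 genes (UMIs per 10000, axes from 0) in cells with 0, 1, 2 or 3 of the class II genes detected, and error bars are 95% Poisson intervals. Cd74 and H2-DMb1 climb with each step, though the H2-DMb1 intervals overlap between 0 and 1 and between 2 and 3. B2m is highest at 3 genes, and Mrc1 stays between 8.71 and 9.94.

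No gene of class I presentation or of the immunoproteasome, which makes peptides for class I molecules, passed a ratio of 1.5. Over all 5616 genes compared 44.0% had a ratio above 1, and counts of genes above 1 in a list are read beside that share. B2m, the light chain of class I molecules, had 40.7 against 29.7 UMIs per 10000 (ratio 1.37, 1.32 to 1.42; 1.31 without the 10 highest cells) and ratios of 1.16, 1.13, 1.27 and 1.37 within the quartiles of depth. The heavy chain genes H2-K1 and H2-D1 had ratios of 1.28 (1.18 to 1.38) and 1.13 (1.06 to 1.20). Of the 18 class I and peptide loading genes, 11 were compared and 8 had a ratio above 1, with a median log2 ratio of 0.16 that was 0.03 without the 10 highest cells. All 5 immunoproteasome genes had a ratio above 1. The intervals of Psmb9 (1.40, 1.08 to 1.79), Psmb10 (1.27, 1.05 to 1.54) and Psme2 (1.31, 1.13 to 1.51) left out 1. Those of Psmb8 (1.05, 0.888 to 1.24) and Psme1 (1.11, 0.917 to 1.34) included it. In the shallowest quartile of depth Psmb8, Psmb9, Psmb10 and Psme1 were at 0.877, 0.471, 0.698 and 0.733 and Psme2 at 1.42. Each of these intervals included 1. Psmb8 was at 0.697 in the next quartile and Psme1 at 0.893 in the one after. The other ratios within quartiles were above 1. The median log2 ratio of the 5 genes was 0.35, or 0.32 without the 10 highest cells, where Psmb8 was at 0.988.

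Genes of costimulation, which T cells need beside the class II signal, were near even. Of 12 such genes 7 were compared and none passed a ratio of 1.5, with a median log2 ratio of 0.09. Cd86 and Cd80 had ratios of 1.10 (0.730 to 1.61) and 1.04 (0.660 to 1.58). Cd83, which keeps class II molecules at the surface, had a ratio of 1.35 (1.02 to 1.76), but 0.919 without the 10 highest cells.

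**Figure D4:**
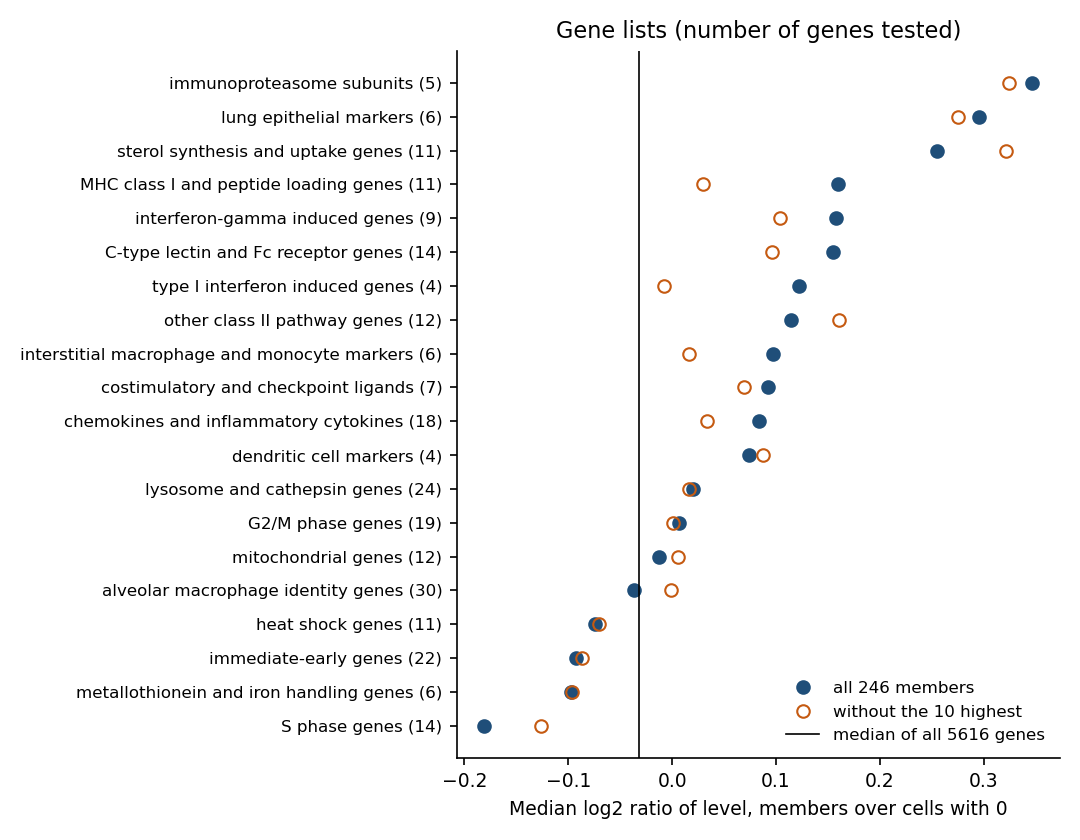
Each row is a gene list with at least 3 genes compared (number in parentheses), and the x axis gives the median log2 ratio of its genes in class II+ AMs over class II-zero AMs, for all 246 cells (filled) and without the 10 highest (open), beside the median of all genes (line, at -0.03). The medians run from -0.18 for S phase genes to 0.35 for the immunoproteasome, and the class I genes move from 0.16 to 0.03 without the 10 highest cells.

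Interferon gamma induces class II genes through Ciita in many cells, so its target genes were set beside the class II+ AMs. Of 26 such genes 20 are listed and 9 were compared, of which 1 was higher and 8 were within a ratio of 1.5, where 1.18% of all genes compared were higher. Their median log2 ratio was 0.16, against -0.03 over all genes. The higher gene was Gbp2, a guanylate-binding protein, with 31 UMIs against 86 (ratio 1.78, 1.14 to 2.71), but its ratio was 1.26 without the 10 highest cells. Class II+ AMs of the shallowest quartile had no Gbp2 UMI. In the other quartiles the ratios were 1.61 (0.404 to 4.70), 1.49 (0.490 to 3.85) and 2.33 (1.26 to 4.22). Averaged over the quartiles with 0.05 added to each level, the ratio was 0.966. Irf1 and Irf8, transcription factors of the response, had ratios of 1.246 and 1.31, and the latter was 1.06 without these cells. The type I interferon genes had 4 of 24 compared and none past 1.5, with a median log2 ratio of 0.12, or -0.01 without the 10 highest cells.

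Cxcl9, a chemokine that draws T cells, was rare and sat in few cells. It was found in 27 cells of the library, of which 11 were class II+ AMs (40.7%, 22.4% to 61.2%), against 11.6% of the cells without it. The 11 class II+ AMs held 65 UMIs, of which 28 and 21 were in 2 cells, 4 in each of 2 cells, 2 in 1 cell and 1 in each of the other 6. The 11 class II-zero AMs with Cxcl9 had 1 UMI each. The cell with 28 UMIs was low in class II genes (7 UMIs, rank 150 of the 246), while the cell with 21 was rank 6. With 76 UMIs in both groups together Cxcl9 was below the limit for the comparison, and 75.4% of its UMIs in class II+ AMs were in those 2 cells. Both were also the highest class II+ AMs for AW112010, with 65 and 74 UMIs.

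The genes with the highest ratios other than H2-DMb1, among those found in at least 10% of class II+ AMs with an interval that leaves out 1, were of mixed function. Ccl17, a dendritic cell marker here and a chemokine for T cells bearing CCR4, had 46 UMIs in 26 class II+ AMs against 80 UMIs in 44 class II-zero AMs (ratio 2.84, 1.93 to 4.13), and 2.78 without the 10 highest cells. It had no UMI in the class II+ AMs of the shallowest quartile, and ratios of 5.54, 5.96 and 1.73 in the others. S100a6, a calcium-binding protein, had 127 UMIs in 47 cells against 243 in 108 (ratio 2.58, 2.06 to 3.21), with ratios of 3.46, 3.90, 2.83 and 1.95 within the quartiles. Ereg, a ligand of the epidermal growth factor receptor, had 50 UMIs against 119 (ratio 2.07, 1.46 to 2.91). Its ratios within the quartiles were 12.5, 2.09, 2.05 and 1.18 (0.647 to 2.06), so the interval of the deepest quartile includes 1. These genes were present in a minority of the class II+ AMs, with 19.1% of the cells for S100a6.

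AW112010, an interferon-responsive transcript, had 768 UMIs in 179 class II+ AMs against 2128 (ratio 1.78, 1.64 to 1.93), and 1.55 without the 10 highest cells, with 18.1% of its UMIs in 2 cells. Its ratios within the quartiles of depth were 1.57, 1.09, 1.21 and 2.07. The other genes of the 12 with the highest ratios had between 29 and 51 UMIs in class II+ AMs and ratios from 1.78 to 1.98, and were Trp53bp2, Rhbdd1, Epb41l1, Bicd2, Gadd45a, Fes and Exosc4. Of the 12 genes, 10 were again among the 12 highest without the 10 highest cells. Cfb, complement factor B, had 40 UMIs against 83 (ratio 2.38, 1.59 to 3.51) in 9.76% of the class II+ AMs, just under the share required of a named gene.

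More abundant genes had smaller ratios that rested in part on few cells. Cst3, a cysteine protease inhibitor abundant in dendritic cells, had 1390 UMIs and a ratio of 1.61 (1.52 to 1.71), but 29.8% of these UMIs were in 2 cells and the ratio was 1.13 without the 10 highest cells. Crip1, a small LIM protein, went from 1.58 (1.44 to 1.72) to 1.35, and Cd52, a surface glycoprotein of leukocytes, from 1.69 (1.54 to 1.85) to 1.42. Wfdc17, a secreted whey acidic protein domain protein, went from 1.77 (1.61 to 1.94) to 1.55, with 49.7% of its UMIs in 10 cells. From the shallowest to the deepest quartile the ratios were 0.989, 1.09, 2.04 and 1.52 for Cst3 and 1.04, 0.746, 2.42 and 1.37 for Crip1. Those of Cd52 were 1.08, 1.45, 1.92 and 1.63, and those of Wfdc17 were 1.42, 1.08, 1.02 and 2.08. Cst3 was at 8.71, 9.39 and 9.19 per 10000 in cells with 0, 1 and 2 class II genes and at 19.4 with 3. Without the 2 cells of highest class II level, which were picked once their values were known, Cst3 stood at 10.8 (9.89 to 11.8) in cells with 3 genes.

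The 12 genes with the lowest ratios, among those found in at least 10% of class II-zero AMs with an interval that leaves out 1, were Uimc1 (0.481, 0.283 to 0.771), Creb1, Fam160b2, Zfp655, Pnrc2, Nfx1, Fam53b, Twf2, Htatsf1, Rab10os, Zfp292 and Zfp451 (0.588, 0.391 to 0.855). They had between 17 and 31 UMIs in class II+ AMs, and 8 of the 12 were again among the lowest without the 10 highest cells. Apoe, a lipid carrier that marks interstitial macrophages and is also made by AMs, had 41 UMIs against 336 (ratio 0.602, 0.424 to 0.834). It had 36.6% of its UMIs in 2 class II+ AMs.

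The label was checked against AM identity genes. All 30 of these genes are listed and compared, none passed a ratio of 1.5, and their median log2 ratio was -0.04. Chil3, the most abundant, had 147 against 133 UMIs per 10000 (ratio 1.11, 1.09 to 1.13) and was found in all 246 class II+ AMs, and Ear2 had a ratio of 1.13 (1.08 to 1.17). Pparg, the transcription factor of AM identity, had a ratio of 0.972 (0.786 to 1.19), and Mrc1 and Marco 0.949 (0.883 to 1.02) and 0.895 (0.786 to 1.02). The 30 genes summed to between 40.4 and 785 per 10000 in each class II+ AM, with a median of 409, against 35.9 to 1165 and a median of 398 in class II-zero AMs. Hdac3, the gene floxed in this mouse, had 18 UMIs, or 0.182 per 10000 against 0.156, which is too few for a comparison.

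In 3 of the 246 cells the AM identity genes were under 100 per 10000, at 57.0, 40.4 and 51.6, while the next lowest was at 192. These cells go against the label, and they were ranks 1, 2 and 5 in class II level and held 550 of the 2282 class II UMIs. The cell of rank 1 had 331 class II and 351 Cd74 UMIs, 215 of Cst3, 28 of Ifi205, 11 of Cd83, 6 of Ccl22, 5 of Cadm1 and 4 of Clec9a, a receptor of conventional dendritic cells, with 0 of Siglecf and Mrc1. The cell of rank 2 had 173 class II, 211 Cd74 and 199 Cst3 UMIs, with 8 of Cd83, 3 of Cadm1 and 1 of Clec9a. Cst3, Ifi205, Cd83 and Cadm1 are not on the list of dendritic cell markers used here. On that list ranks 1 and 2 had 27.0 and 27.8 per 10000, from 3 and 5 of the 13 markers listed. Single class II-zero AMs reached 66.4 on it, so the sum of the list does not set ranks 1 and 2 apart. The cell of rank 5 had 46 class II UMIs, 7 of Ms4a1, 3 of Cd79a and 3 of Mzb1, genes of the B lineage, together with 8 of H2-DMb2 and 37 of Cd52.

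The other 7 of the 10 highest cells carried AM identity genes at 244 to 726 per 10000. The cell of rank 3 had 135 class II UMIs with 71 of Chil3, and that of rank 6 had 81 with 252 of Chil3. Rank 6 also had 21 Cxcl9 and 19 Cxcl10 UMIs and 75 UMIs of 13 interferon gamma genes, the most of these 10 cells. Rank 8 had the lowest depth of the 10, 1804 UMIs, and 15.3% of them on mitochondrial genes. Ranks 10 and 11 were next to each other at a mean ln value of 2.99 and 2.94, so the line between the 10 highest and the rest does not fall at a gap.

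**Figure D5:**
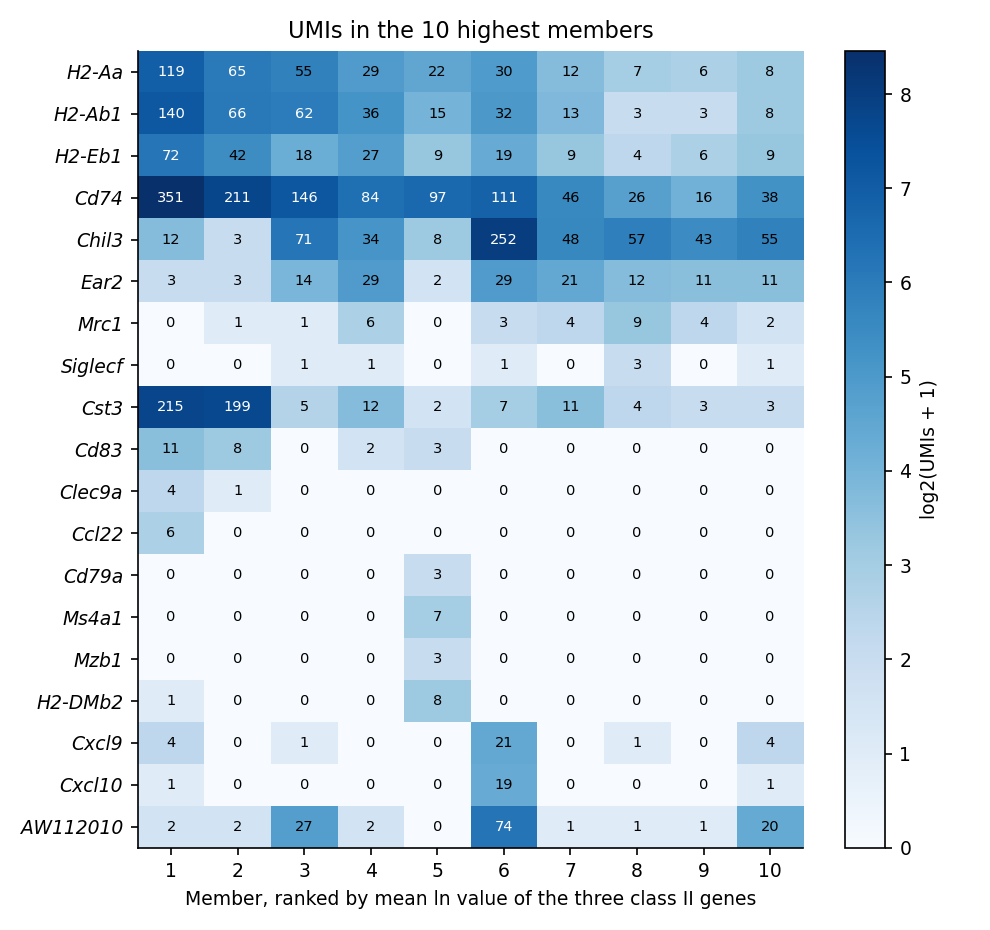
Columns are the 10 class II+ AMs with the highest mean ln value of H2-Aa, H2-Ab1 and H2-Eb1, by rank, and rows are genes; each number is the UMIs of the gene in that cell, shaded by log2(UMIs + 1). Ranks 1 and 2 hold 215 and 199 UMIs of Cst3 with 12 and 3 of Chil3, Ms4a1 and Cd79a are above 0 in rank 5 alone, and Cxcl9 is highest in rank 6, at 21.

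In the class II-zero group 2 cells were also under 100 per 10000 in AM identity genes. Without these and the 3 class II+ cells, 62 genes were higher and 145 lower, and H2-DMb1 had a ratio of 2.89. The number of genes compared there is not given here, so these counts have no share beside them. Over the whole group the dendritic cell markers, of which 13 of 20 are listed, summed to 12.0 per 10000 (11.3 to 12.7) against 11.3 in class II-zero AMs, and Clec10a was at 0. Of the 4 dendritic cell markers compared only Ccl17 was past 1.5, and Naaa was at 1.13. Interstitial macrophage and monocyte markers summed to 16.0 (15.3 to 16.8) against 14.9, with Maf and Ly6c1 at 0 and Ms4a7 at a ratio of 1.84 (1.15 to 2.88) on 28 UMIs. B and plasma cell markers summed to 0.522 (0.390 to 0.685) against 0.397 (0.343 to 0.457), or 0.390 without the 10 highest cells. In the cells with 1 class II gene they summed to 7.44, or 0.358 without the 1 cell that held 951 of these UMIs (2406 per 10000 of the cell). Markers of T and NK cells, granulocytes and endothelial or stromal cells were at 0.121, 0.773 and 0.0803 per 10000, against 0.145, 0.743 and 0.0799. Lung epithelial markers were higher, at 6.57 (6.07 to 7.09) against 5.35 (5.15 to 5.56), with Sftpd, Scgb3a1, Cxcl15 and Slc34a2 at 0. Epcam made up 361 of these 654 UMIs (ratio 1.26, 1.12 to 1.42), and the part of epithelial RNA in the other results was not tested.

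Among other programs, all 11 sterol genes compared had a ratio above 1, beside 44.0% of all genes, led by Fdps, farnesyl diphosphate synthase, at 1.54 (1.16 to 2.02), Msmo1 at 1.40 and Cyp51 at 1.38, with a median log2 ratio of 0.26, and 0.32 without the 10 highest cells. Of the C-type lectin and Fc receptor genes 12 of 14 had a ratio above 1, with a median of 0.15, and Clec4n, which encodes dectin-2, had a ratio of 1.22 (1.14 to 1.31). Among 18 chemokine and cytokine genes compared none passed 1.5, and Il1b was at 1.29 (1.12 to 1.497). Immediate-early genes, which respond to cell handling, had a median of -0.09 over 22 genes, heat shock genes -0.07 over 11 and mitochondrial genes -0.01 over 12. Lysosome and cathepsin genes had a median of 0.02 over 24, with Cst3 the only higher gene, and metallothionein and iron genes -0.10 over 6.

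The intervals of the share of cells in cycle overlapped between class II+ and class II-zero AMs. With at least 3 of 6 proliferation genes, 14 class II+ AMs were cycling (5.69%, 3.15% to 9.36%), against 66 class II-zero AMs (4.52%, 3.52% to 5.72%) and 30 of the cells with 1 gene (8.57%, 5.86% to 12.0%). The S phase genes had a median log2 ratio of -0.18 over 14 genes and the G2/M genes 0.01 over 19, of which 2 were higher and 3 lower.

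In the rest of the transcriptome the class II+ AMs lay among the other cells. On 15 principal components of 500 variable genes, without the 3 genes and Cd74, the 30 nearest neighbours of a class II+ AM were class II+ AMs in 12.8% on average, where their share alone would give 11.9%. For cells with all 3 genes it was 13.8%, for the 10 highest cells 23.7%, for the other 236 cells 12.3% and for class II-zero AMs 11.1%. The highest share for a class II+ AM was 40%. Over the alternatives, the mean for class II+ AMs ran from 11.9% with 1000 variable genes to 13.05% with 10 neighbours, where the highest share was 60%.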

How the data were processed

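The library was made by the authors with the 10x Genomics 3' v2 assay and processed with Cell Ranger and Seurat, and the submitters' processing notes name mm10. The authors deposited natural log values (ln of 1 plus UMIs per 10000 of the cell) and a scaled score per gene and cell, which is centred, capped at 10 and used here only for neighbours. No raw counts were used as deposited: whole UMIs were recovered from the ln values, and 100% of values above 0 came out whole within 1e-06, in 2055 cells and 11918 genes with 7222978 UMIs (1143 to 8603 per cell, median 3278). The stated filters are not all seen in the values, since 384 cells (18.7%) had over 5% mitochondrial UMIs, 279 genes had UMIs in under 3 cells and 108 Rpl or Rps genes are listed. Doublets were not called here; the highest number of genes in a cell was 2495. There were 0 columns of other samples. The library of the mice lacking Hdac3 was not analysed here.

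UMIs were summed per group and given per 10000 UMIs, without the 3 genes of the rule and Cd74, with exact Poisson, Clopper-Pearson and conditional binomial ratio intervals. UMIs are molecules, and intervals cover counting error only, not the spread between mice or between cells, so sums that rest on few cells are less certain than their interval. Genes with at least 100 UMIs in both groups were compared at a fold of 1.5. The named genes are those of the rule, Cd74, Hdac3, Pparg and Ciita, the 12 highest and 12 lowest ratios among genes found in at least 10% of the higher group's cells with an interval that leaves out 1, and up to 6 genes of each list. The members and lists were chosen with earlier results of these data known. The ratio step was tested on simulated data. Gene positions are from GENCODE M21 (GRCm38) and promoters from RefSeq GRCm38.p6; the promoter of H2-Ab1 was not used here. Alternatives changed the rule, depth, UMI limit, fold, denominator, mitochondrial limit and cells in cycle. Python 3.11.15, numpy 2.4.6, scipy 1.17.1, pandas 2.3.3, scikit-learn 1.9.0 and matplotlib 3.10.9 were used.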

Additional observations from a re-analysis of the deposited data

How the results depend on the processing

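Against 66 genes higher and 159 lower at a ratio of 1.5, there were 140 and 462 with all 3 genes required, 39 and 44 with at least 1 gene, 36 and 392 when ratios were taken within quartiles of depth, 331 and 664 with at least 30 UMIs, 10 and 12 with at least 300 UMIs, 400 and 664 at the lower ratio tried, and 5 and 12 at a ratio of 2. The 36 and 392 rest on log ratios averaged over quartiles with 0.05 added to each level, as described above. The counts were within 1.5 times of the main ones under the other alternatives, including 57 and 142 in cells thinned to 1500 UMIs. Leaving out the 3 class II+ and 2 class II-zero cells low in AM identity genes gave 62 and 145. Leaving out the 2 cells with the most class II UMIs gave 61 and 145. Both were chosen after seeing the data. The share of class II+ AMs was 5.91% when the rule was applied to thinned cells, 29.0% with at least 1 gene and 5.06% with all 3. Of 552 ratios of 47 genes under 13 alternatives, 485 were within the interval of the main ratio. Reversal was counted only for the 33 genes past a ratio of 1.5 in the main comparison. Among them 1 ratio was reversed, that of Gbp2, at 0.966 as the average over quartiles of depth. Class II+ AMs had no Gbp2 UMI in the shallowest quartile, and its ratio was above 1 in the other quartiles. The other 66 ratios were outside the interval. For genes within 1.5 the direction was not followed, and Psmb8 went from 1.05 to 0.988 without the 10 highest cells. The limits of 30 and 300 UMIs changed only which genes were compared, so ratios there equal the main ones by construction. Of the 33 genes, 8 stayed past 1.5 in every alternative that gave them a ratio. Each of the others, H2-DMa among them, was within 1.5 in at least 1 alternative. H2-DMb1 and S100a6 had a ratio in all 13 alternatives, these limits included, and were past 1.5 in each. Ccl17 and Ereg were past it in the 11 that gave them a ratio, Creb1 and Twf2 in 12, Trp53bp2 in 10 and Rhbdd1 in 8. These numbers of alternatives also include a UMI limit where the gene met it. In the deepest quartile alone Ereg was at 1.18 (0.647 to 2.06). With 1 library, sequencing depth limits rare genes such as Ciita, and no spread between mice is known. No paired analysis was possible because there is 1 library.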
